A study of Homo sapiens with 6 samples.

Results

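Transcription and chromatin regulators reported in the literature as targets of the microRNA miR-22 were examined in the RD18 cell line. RD18 derives from an embryonal rhabdomyosarcoma, a childhood cancer whose cells resemble muscle precursors. The set names 9 genes: NCOA1, ESR1, SP1, MAX, MYCBP, PURB, SIRT1, HDAC4 and TET2. A gene was read from the rows whose only gene symbol in the platform annotation is its own, and a gene with several such rows from the row with the highest mean over the 6 arrays. This gave 8 measured genes, among 18417 genes that could be read this way from the table's 33297 rows. MYCBP, which encodes a protein that binds MYC, was not read, because the 1 row that carries its symbol also carries that of GJA9-MYCBP.

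Total RNA of 6 cultures was hybridised to Affymetrix Human Gene ST arrays, 1 array per culture. The derivative NpBI-22 makes miR-22 when doxycycline is added. It was profiled in 2 biological replicates given doxycycline (induced; 1 µg/ml for 6 days) and 2 without it (non-induced). The derivative NpBI-206AS was profiled as 1 induced array, with the same doxycycline treatment, and 1 non-induced array, as an additional control. What NpBI-206AS expresses, and whether either derivative is a single clone, is not stated in the labels, so the effect of doxycycline and that of the expressed product cannot be told apart between its 2 arrays. The values are the authors' RMA log2 expression values, on which a difference of 1 is a 2-fold difference. The number of arrays limits the precision of every value.

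MicroRNAs guide Argonaute proteins to messenger RNAs, chiefly through pairing of the seed near the microRNA's 5′ end with sites in the 3′ untranslated region, and lower the stability and translation of those mRNAs. An array reads the level of an mRNA and not its translation. The mature sequences of the 2 strands of the miR-22 hairpin are shown because any direct pairing starts from their seeds, bases 2 to 8, which are in capitals. Both come from RefSeq on GRCh38.p14, minus strand, at chr17:1713914-1713935 for the 3p strand and chr17:1713952-1713973 for the 5p strand.
hsa-miR-22-3p: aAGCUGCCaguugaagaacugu
hsa-miR-22-5p: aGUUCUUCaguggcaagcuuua
The 2 strands have different seeds. Of 2370 mature names in the RefSeq table, 1 carries the 3p seed and 1 the 5p seed, namely these strands themselves. An mRNA pairs with the 3p seed through GGCAGCU and with the 5p seed through GAAGAAC. Transcript sequences were not used here, so no site in a target is shown.

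The 9 genes act at several levels of gene control. ESR1 encodes the estrogen receptor alpha, a ligand-activated transcription factor, and NCOA1 (also called SRC-1) a coactivator that nuclear receptors recruit and that brings in histone acetyltransferases. SP1 binds GC-rich promoters through zinc fingers, MAX is the partner that MYC needs to bind DNA, and PURB binds purine-rich single-stranded DNA and represses muscle contractile genes. SIRT1 is an NAD-dependent deacetylase of histones and transcription factors, HDAC4 a class IIa histone deacetylase that restrains MEF2 factors in muscle, and TET2 an enzyme that oxidises methylated cytosine in DNA.

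MIR22HG, the host gene of miR-22, checked the labels: it averaged 10.02 ± 0.0062 in induced and 6.49 ± 0.32 in non-induced NpBI-22 cells (SD, n = 2 each), with 6.32 and 6.41 on the induced and non-induced NpBI-206AS arrays. The labels give each array a code, and both induced NpBI-22 arrays carry the prefix R715, which no other array has. Non-induced NpBI-22 replicate 1 carries R509, and replicate 2 and both NpBI-206AS arrays R587. Over all rows, non-induced NpBI-22 replicate 2 correlated at r = 0.9945 and 0.9939 with the non-induced and induced NpBI-206AS arrays. With replicate 1 of its own group it correlated at 0.9866. The reason was not tested. The meaning of the prefix is not stated. Should it stand for a batch, that batch would coincide with miR-22 induction, and the pair cannot be told apart in the comparisons given here. In bulk RNA, fewer cells of a type and less RNA per cell cannot be told apart either. Of 8 skeletal muscle markers, 6 lay above the array median on all 6 arrays, among them MYOD1, MYOG and DES, while MYF5 and MYF6 lay below it on all. The summed log2 values of the 8 ran from 60.8 to 62.03 on the induced NpBI-22 arrays, against 63.4 to 64.1 on the non-induced ones. They were 62.1 and 61.2 on the induced and non-induced NpBI-206AS arrays. DES, a muscle filament gene, fell by 1.073 (limma adjusted p = 0.038), and no other of these muscle markers passed. MYOD1, MYOG, CDH15 and CHRNA1 differed by -0.53, -0.69, -0.70 and -0.21. MYF6, PAX7 and MYF5 differed upward, by 0.52, 0.33 and 0.039. The 4 measured blood, 4 endothelial and 4 epithelial markers were below the array median on every array. Of 4 neural markers, RBFOX3 lay above it on all 6 arrays, SOX10 on 5, GFAP on 4 and SYP on 0, and their summed log2 values ran from 23.09 to 23.71 on the induced NpBI-22 arrays, against 21.99 to 22.72 on the other 4. The part of these markers in the results was not tested.

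The main comparison set induced against non-induced NpBI-22 cells, with limma across all rows and Benjamini-Hochberg adjustment at 0.05. NCOA1 fell 2.71-fold and was the only one of the 8 measured genes that passed. Over all rows 3.6% passed, 1.59% as rises and 2.01% as falls. NCOA1 and PURB had an unadjusted p under 0.05, as did 21.6% of rows. With the dimmest 50% of rows left out, which keeps 7 of the 8 genes, 5508 of 16649 rows did. The split of called rows depended on scaling, with 531 higher and 669 lower rows as deposited and 718 higher and 574 lower with each array centred on its median. PURB had the next largest difference, -0.97, and did not pass. For the other 6 genes the differences lay between -0.33 for SIRT1 and 0.31 for ESR1. The median over the 8 genes was -0.20, against -0.01 over all rows and 0.0072 over all genes. Of the 8 differences 7 were negative, but those of SP1, MAX and TET2 changed sign when 1 array or another was left out. In NCOA1, PURB and SIRT1 both induced arrays lay below both non-induced ones, as they did in 26% of rows. In none of the 8 did both lie above, as they did in 25% of rows.

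A second fit, which set the 2 induced NpBI-22 arrays against the other 4 arrays together, called 2 of the 8 genes, NCOA1 and PURB, both lower. Here 13.7% of all rows passed, 6.32% as rises and 7.43% as falls. Of all 18417 genes 1432 rose and 1163 fell. With the dimmest 50% of rows left out, 2221 of 16649 rows rose and 2534 fell. SIRT1 joined NCOA1 and PURB at an unadjusted p under 0.05, which 28% of rows had. With the dimmest 50% of rows left out, 6919 of 16649 had it. The split of called rows was 2103 higher and 2473 lower, or 2628 higher and 2042 lower with each array centred on its median. The median over the 8 genes was -0.24, against 0.02 over all rows. The other 4 arrays include the 2 non-induced NpBI-22 arrays of the first comparison, so the fits share 4 arrays and are not independent. These other 4 arrays come from both lines, with and without doxycycline, and the second fit treated them as replicates of a common control. Its standard errors and p-values thus assume that line, doxycycline and whatever the array prefix stands for do not shift the mean among them. Non-induced NpBI-22 replicate 1, of prefix R509, correlated at r = 0.984 to 0.987 with the R587 arrays. Those correlated at 0.994 to 0.995 with each other. In 3 of the 8 genes, NCOA1, PURB and SIRT1, both induced NpBI-22 arrays lay below all 4 others, as they did in 18.3% of all rows. Both lay above in 0 of the 8, and in 19.4% of rows.

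**Figure D1:**
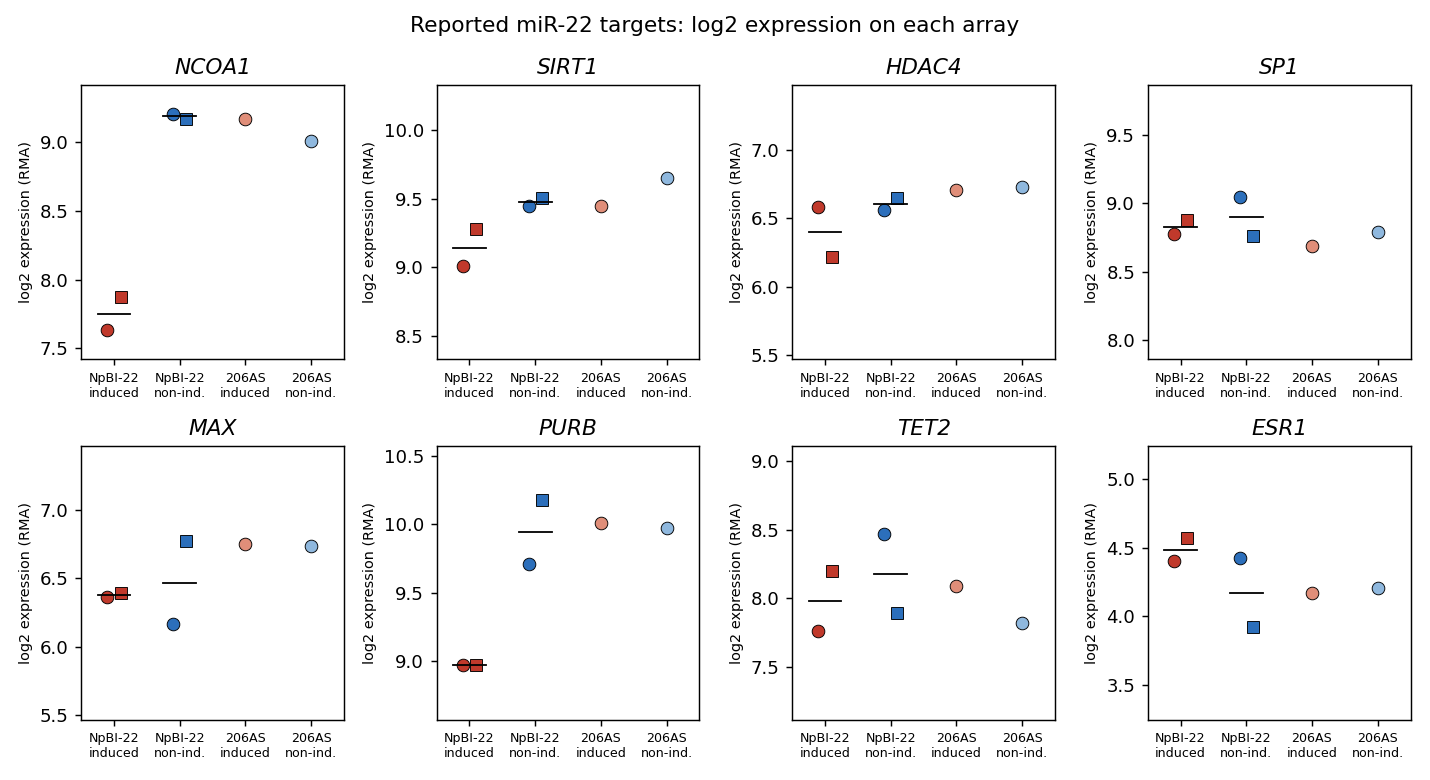
Log2 expression (RMA, vertical axes, each spanning 2 log2 units) of the 8 measured genes on each of the 6 arrays, by group; circles are replicate 1 or the only array of a group, squares replicate 2, and bars the mean of 2 arrays. NCOA1 and PURB stand apart on both induced NpBI-22 arrays, while the non-induced NpBI-22 arrays of MAX, TET2 and ESR1 lie at least 0.50 from each other.

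NCOA1, the nuclear receptor coactivator, read 7.63 and 7.87 on the induced NpBI-22 arrays, against 9.21 and 9.17 on the non-induced ones. On the NpBI-206AS arrays it read 9.17 induced and 9.01 non-induced. The 4 arrays without induced miR-22 thus lay between 9.01 and 9.21, and both induced NpBI-22 arrays lay more than 1 log2 unit below the lowest of them. The difference from non-induced NpBI-22 cells was -1.44 (SE 0.16, 95% interval -1.84 to -1.04, limma adjusted p = 0.023). Against the other 4 arrays it was -1.39 (SE 0.12, limma adjusted p = 0.0012). By unadjusted p NCOA1 ranked 234 and 152 of 33297 rows in these fits. With any 1 of the 4 NpBI-22 arrays left out, the difference from non-induced NpBI-22 cells stayed between -1.56 and -1.32, but no row of the table passed and the limma adjusted p of NCOA1 lay between 0.11 and 0.40. Against the other arrays it passed with any 1 of the 6 left out, at adjusted p of 0.0011 to 0.023.

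ESR1, the estrogen receptor, read 4.405 and 4.57 on the induced NpBI-22 arrays, against 4.42 and 3.92 on the non-induced ones, and 4.17 and 4.21 on the induced and non-induced NpBI-206AS arrays. The NpBI-22 groups overlapped. These values are near the lower quartile of the arrays, 3.92 to 4.01, and the non-induced replicate 2 value lies under it, and no detection call was used here, so whether this row exceeds background is not known. The difference was 0.31 (95% interval -0.22 to 0.85, limma adjusted p = 0.48). A second, dimmer row annotated to ESR1 gave -0.02 (95% interval -0.56 to 0.53), so the 2 rows did not share a sign.

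SP1, the GC-box factor, read 8.78 and 8.88 on the induced NpBI-22 arrays, against 9.04 and 8.76 on the non-induced ones. It read 8.69 and 8.79 on the induced and non-induced NpBI-206AS arrays. All 6 values lay within 0.36, the smallest range of the 8 genes, and the groups overlapped. The difference was -0.07 (95% interval -0.50 to 0.35), which leaves out a fall of the size measured for NCOA1.

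MAX, the obligate partner of MYC, read 6.36 and 6.39 on the induced NpBI-22 arrays, against 6.17 and 6.77 on the non-induced ones. The NpBI-206AS arrays read 6.75 induced and 6.74 non-induced. The induced NpBI-22 values fell between the 2 non-induced ones, and the comparison of these groups gave -0.09 (95% interval -0.67 to 0.48, limma adjusted p = 0.88). Non-induced replicate 1, the only array of prefix R509, held the lowest value. Without that array, the induced NpBI-22 arrays lay 0.38 below the 3 remaining arrays, all of prefix R587. MAX then passed (limma adjusted p = 0.031), as did 7463 of 33297 rows. With all 4 other arrays it did not (difference -0.23, limma adjusted p = 0.50).

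PURB, the single-strand binding repressor, read 8.97 on both induced NpBI-22 arrays, against 9.71 and 10.17 on the non-induced ones. It read 10.01 and 9.97 on the induced and non-induced NpBI-206AS arrays. The induced NpBI-22 arrays were 0.0011 apart and lay well below the lowest of the other arrays, 9.71. The difference from non-induced NpBI-22 cells was -0.97 (SE 0.20, 95% interval -1.47 to -0.47) and missed the threshold (limma adjusted p = 0.063). Against the other 4 arrays PURB fell by 0.995 on the log2 scale (SE 0.14, limma adjusted p = 0.0057). That call was lost without induced replicate 1 (-0.996, limma adjusted p = 0.063) or induced replicate 2 (-0.995, limma adjusted p = 0.052), and it stood without any 1 of the other 4 arrays. In the comparison with non-induced NpBI-22 cells PURB passed under 4 of the alternatives: quantile normalization applied again (adjusted p = 0.044), cyclic loess (0.043), the dimmest rows left out (0.022) and the replicate number as a block (0.034), all in limma. These settings also called more of the table. In that order 1343, 1428, 2611 (of 16649 tested) and 2955 rows passed, against 1200 in the main fit.

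**Figure D2:**
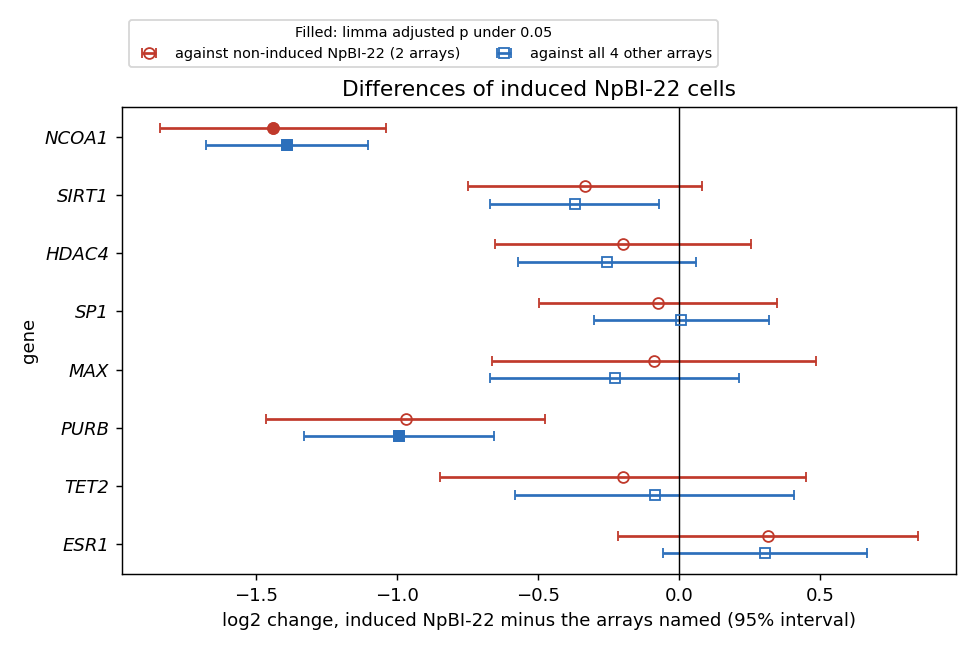
Log2 change (horizontal axis) with its 95% interval for the 8 measured genes, for induced NpBI-22 cells minus non-induced NpBI-22 cells (circles) and minus all 4 other arrays (squares); filled symbols passed at a limma adjusted p under 0.05. NCOA1 is filled in both fits, at -1.44 and -1.39, and PURB only in the second, at -0.995.

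SIRT1, the deacetylase, read 9.005 and 9.28 on the induced NpBI-22 arrays, against 9.45 and 9.503 on the non-induced ones, and 9.44 and 9.65 on the induced and non-induced NpBI-206AS arrays. Both induced NpBI-22 arrays were the lowest of the 6, but the gap to the next array, 0.17, was smaller than the 0.27 between them. The difference from non-induced NpBI-22 cells was -0.33 (95% interval -0.75 to 0.08, limma adjusted p = 0.32), and that from the other 4 arrays -0.37 (limma adjusted p = 0.10). Neither passed. The NpBI-206AS arrays also differed downward with doxycycline, by -0.21, and the response of NpBI-22 minus that of NpBI-206AS was -0.12 (95% interval -0.84 to 0.59).

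HDAC4, the class IIa deacetylase, read 6.58 and 6.22 on the induced NpBI-22 arrays, against 6.56 and 6.64 on the non-induced ones. Values on the induced and non-induced NpBI-206AS arrays were 6.70 and 6.72. Only induced replicate 2 lay apart, and the other 5 arrays spanned 0.16. The difference was -0.20 (95% interval -0.65 to 0.25, limma adjusted p = 0.60). Leaving out induced replicate 1 gave -0.38, and leaving out induced replicate 2 gave -0.02.

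TET2, the methylcytosine dioxygenase, has 2 rows of its own symbol, and both overlapped between the groups. The brighter row read 7.76 and 8.20 on the induced NpBI-22 arrays, against 8.47 and 7.89 on the non-induced ones, and 8.09 and 7.82 on the induced and non-induced NpBI-206AS arrays. The replicates of the NpBI-22 groups were thus 0.44 and 0.58 apart, more than the difference of -0.20 between the group means (95% interval -0.85 to 0.45, limma adjusted p = 0.73). The second row was steadier, within 0.34 on all 6 arrays. Its difference was -0.04 (95% interval -0.45 to 0.37).

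The 2 NpBI-206AS arrays compare cells with and without doxycycline where miR-22 is not induced. The effect of doxycycline and that of this line's expressed product cannot be told apart there. Between the induced and the non-induced array the 8 genes differed by -0.21 for SIRT1 to 0.27 for TET2, with a median of -0.0037, and none differed 2-fold, as did 0.673% of all rows. These differences have no replicate check. The non-induced NpBI-206AS array differed from the mean of non-induced NpBI-22 cells by -0.36 for TET2 to 0.27 for MAX, and none of the 8 reached 2-fold, as did 1.09% of rows. With doxycycline on both sides, induced NpBI-22 minus induced NpBI-206AS was -1.42 for NCOA1 (limma adjusted p = 0.065) and -1.04 for PURB (limma adjusted p = 0.14). In that fit the lone NpBI-206AS array is assumed to vary like the replicated groups, 0 of the 8 genes passed, and 0.39% of all rows passed. NCOA1 and PURB had an unadjusted p under 0.05, as did 15.7% of rows.

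The test of whether the 2 lines responded differently subtracted the NpBI-206AS difference from the NpBI-22 difference. NCOA1 gave -1.60 (SE 0.28, 95% interval -2.30 to -0.91, limma adjusted p = 0.28) and PURB -1.005 (SE 0.35, 95% interval -1.86 to -0.15, limma adjusted p = 0.50). In limma 0 of the 8 genes and 0% of all rows passed, and 8.88% of all rows had an unadjusted p under 0.05. NCOA1 and PURB were the 2 of the 8 below that unadjusted level.

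The relatives and partners of the 8 genes were read from 10 lists, and an eleventh held other genes reported as miR-22 targets. Of 156 such genes, 141 had a row of their own symbol, and in the comparison of induced with non-induced NpBI-22 cells 4 fell and 2 rose, with a median of -0.03. Among all 18417 genes, 281 fell and 319 rose, with a median of 0.0072.

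Nuclear receptor coactivators and corepressors, the functional class of NCOA1, had a median of -0.29 over 16 measured genes besides NCOA1. In limma 0 of them passed in the main comparison. An unadjusted p under 0.05 was seen in 5 lower and 1 higher of them, and in 21.6% of all rows in either direction. Against the other 4 arrays 4 fell and 0 rose, where 1163 of all 18417 genes fell and 1432 rose. With the dimmest 50% of rows left out, 2534 of 16649 rows fell and 2221 rose. The largest differences in the main comparison were those of acetyltransferase genes: KAT2A read 7.04 ± 0.21 in induced and 7.80 ± 0.22 in non-induced NpBI-22 cells (SD, n = 2 each), and CREBBP 8.34 ± 0.029 and 9.04 ± 0.55. NCOA1 lay below every other gene of the list. Its close relative NCOA2 differed upward, by 0.49 (limma adjusted p = 0.14), and NCOA3 was not read for want of a row of its own symbol. Of 12 other estrogen receptor relatives and classical estrogen target genes, limma called 0, with 1 higher at an unadjusted p under 0.05 and a median of -0.05. XBP1, a stress-response factor that estrogen also raises, differed by 0.76 (limma adjusted p = 0.076) and the cyclin gene CCND1 by -0.50 (limma adjusted p = 0.30). Against the other 4 arrays 1 of the 12 rose, XBP1 (limma adjusted p = 0.012), and 0 fell.

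Both rises were in the family of SP1. Among 24 other Sp and KLF zinc-finger factors, KLF7 rose by 1.25 (SE 0.20, limma adjusted p = 0.037) and averaged 9.11 ± 0.0032 in induced against 7.85 ± 0.31 in non-induced NpBI-22 cells (SD, n = 2 each). KLF6, an early-response factor of the same family, rose by 0.96 (SE 0.15, limma adjusted p = 0.036). The list's median was 0.12. Against the other 4 arrays 3 of the 24 rose and 0 fell, where 1432 of all 18417 genes rose and 1163 fell. In the MYC, MAX and MXD network limma called 0 of 14 other genes, with a median of 0.05. Unadjusted p was under 0.05 in 2 higher and 1 lower, and in 21.6% of all rows in either direction. MYC itself differed by 0.78 (limma adjusted p = 0.090) and MYCN by 0.73 (limma adjusted p = 0.13). Against the other 4 arrays 1 of the 14 rose and 1 fell. Of 18 measured classical MYC target genes limma called 0 (2 lower and 0 higher at an unadjusted p under 0.05, median -0.05), and the largest differences were -1.0 for NOP58 and -0.59 for NCL, both of the nucleolus. Against the other 4 arrays 2 of the 18 fell, NOP58 and NCL (limma adjusted p = 0.0080 and 0.017), and 0 rose.

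Neither of the other PUR genes shared the sign of PURB. Its close paralog PURA differed by 0.16 (limma adjusted p = 0.67) and PURG by 0.67 (limma adjusted p = 0.12), and the 5 other PUR and Y-box genes had a median of 0.16. Limma called 0 of the 5 in the main comparison, with 1 higher at an unadjusted p under 0.05, against 21.6% of all rows in either direction. Against the other 4 arrays 1 of the 5 rose, PURG (limma adjusted p = 0.022), as did 1432 of all 18417 genes, and 0 fell. The differences between PURB and these genes were not tested.

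Among chromatin enzymes limma called none of the relatives in the main comparison. Over all rows 21.6% had an unadjusted p under 0.05 there, in either direction. The 6 other sirtuin genes had a median of 0.28 with 3 higher at an unadjusted p under 0.05, and SIRT7, a nucleolar sirtuin, differed by 0.77 (limma adjusted p = 0.067) and SIRT6 by 0.56 (limma adjusted p = 0.13). Against the other 4 arrays 3 of the 6 rose, as did 1432 of all 18417 genes. The 10 other zinc-dependent histone deacetylases had a median of -0.25 with 3 lower at an unadjusted p under 0.05. The class I enzymes HDAC1 and HDAC3 differed by -0.90 (limma adjusted p = 0.067) and -0.67 (limma adjusted p = 0.076). Both fell against the other 4 arrays (limma adjusted p = 0.0078 and 0.010), as did 1163 of all 18417 genes. The 3 measured MEF2 factors, which HDAC4 binds, differed by -0.05 to 0.25, and none had an unadjusted p under 0.05. Of 14 other genes of DNA methylation and its removal, with a median of 0.18, unadjusted p was under 0.05 in 3 lower and 2 higher. The glycosylase gene TDG, which acts downstream of TET enzymes, differed by 0.86 (limma adjusted p = 0.061) and the methyltransferase gene DNMT3B by -0.73 (limma adjusted p = 0.18). Against the other 4 arrays 2 of the 14 rose and 1 fell. TDG was among the rises (limma adjusted p = 0.0078).

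Of 19 other measured genes reported as miR-22 targets, 4 fell and 0 rose, with a median of -0.09. Of all 18417 genes 281 fell and 319 rose. Unadjusted p was under 0.05 in 7 lower and 3 higher, and in 21.6% of all rows in either direction. Against the other 4 arrays 7 fell and 2 rose, where 1163 of all 18417 genes fell and 1432 rose. In the main comparison the 4 falls were those of TACC1, ERBB3, RAB5B and ACLY, the enzyme that makes acetyl-CoA from citrate. The study's publication names the first 3, which may have been chosen on these arrays. ACLY fell by 0.997 (SE 0.16, limma adjusted p = 0.039) and read 9.38 ± 0.16 in induced and 10.37 ± 0.036 in non-induced NpBI-22 cells (SD, n = 2 each). NCOA1, at -1.44, lay between TACC1 at -1.63 and ERBB3 at -1.40.

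**Figure D3:**
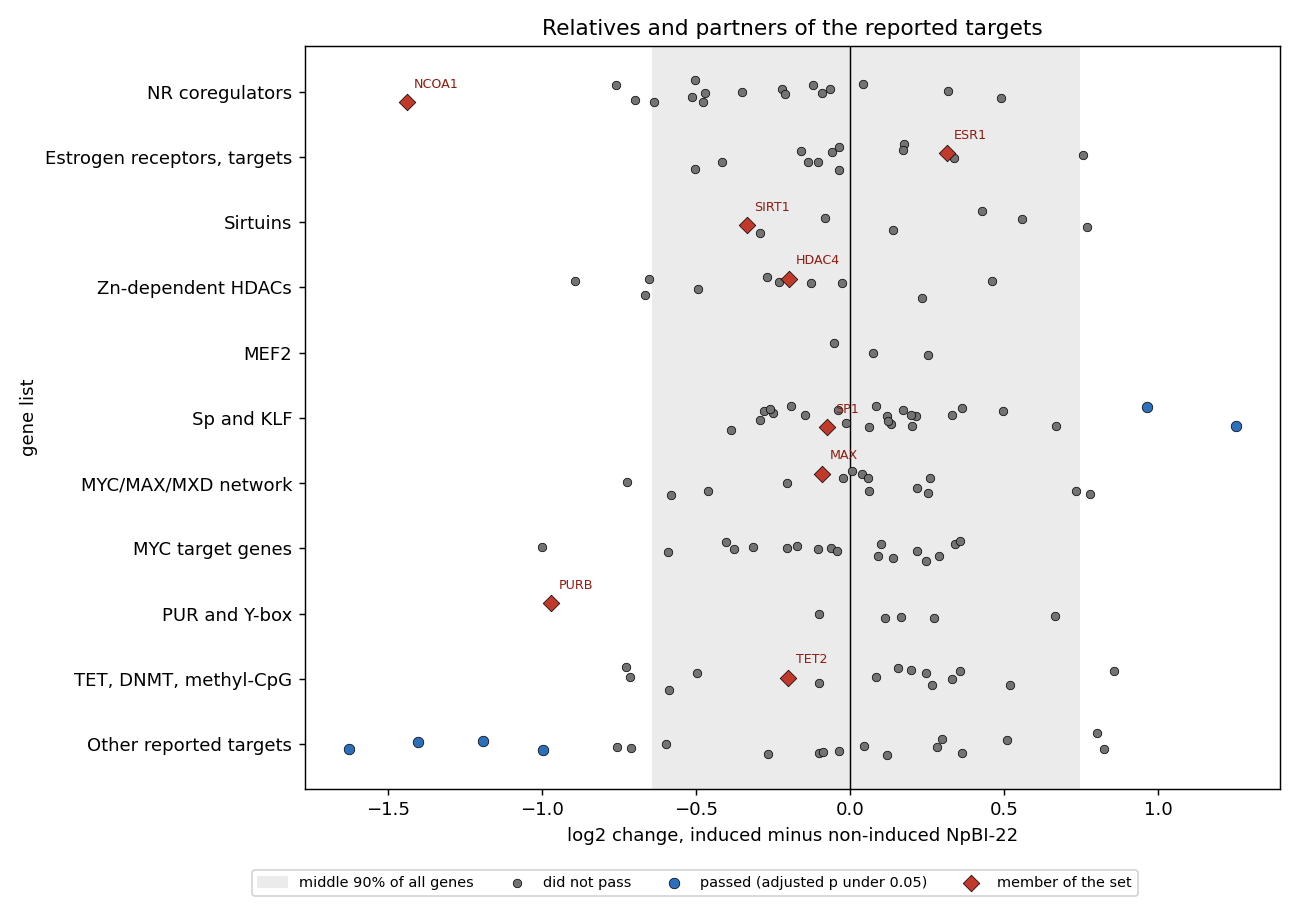
Log2 change, induced minus non-induced NpBI-22 cells (horizontal axis), of every measured gene of the 11 lists (rows; vertical scatter within a row only separates points). Diamonds are the 8 measured genes of the set, blue points other genes that passed, grey points genes that did not, and the shaded band runs from the 5th to the 95th percentile of all 18417 genes, -0.64 to 0.74. NCOA1 and PURB are the diamonds outside the band, and blue points occur in the rows of Sp and KLF factors (2, higher) and of other reported targets (4, lower).

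Genes with the profile most like that of NCOA1 and PURB over the 6 arrays were ranked by the root mean square difference of log2 values after each gene was centred on its own mean. Nearest to NCOA1 were EIF5B, a translation initiation factor gene (0.071), DSE, an epimerase gene of dermatan sulfate synthesis (0.081), and SLC4A11, a membrane transporter gene (0.093), against a median of 0.69 over all genes. EIF5B read 9.04 and 9.29 on the induced NpBI-22 arrays, against 10.39 to 10.54 on the other 4. Nearest to PURB were PSME1, a proteasome activator subunit gene (0.059), SPAG5, a spindle gene (0.066), and WRNIP1, a gene of DNA damage tolerance (0.075), against a median of 0.53. In each of these 6 genes, as in NCOA1 and PURB, both induced NpBI-22 arrays lay below the other 4. This pattern held in 18.3% of all rows. With PURB the nearest genes also shared a non-induced replicate 1 below the other 3 arrays outside the induced NpBI-22 pair. Such likeness is a description over 6 arrays, of which 2 set most of the profile. The genes were chosen for likeness on these same arrays, so the shared features follow from the choice.

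**Figure D4:**
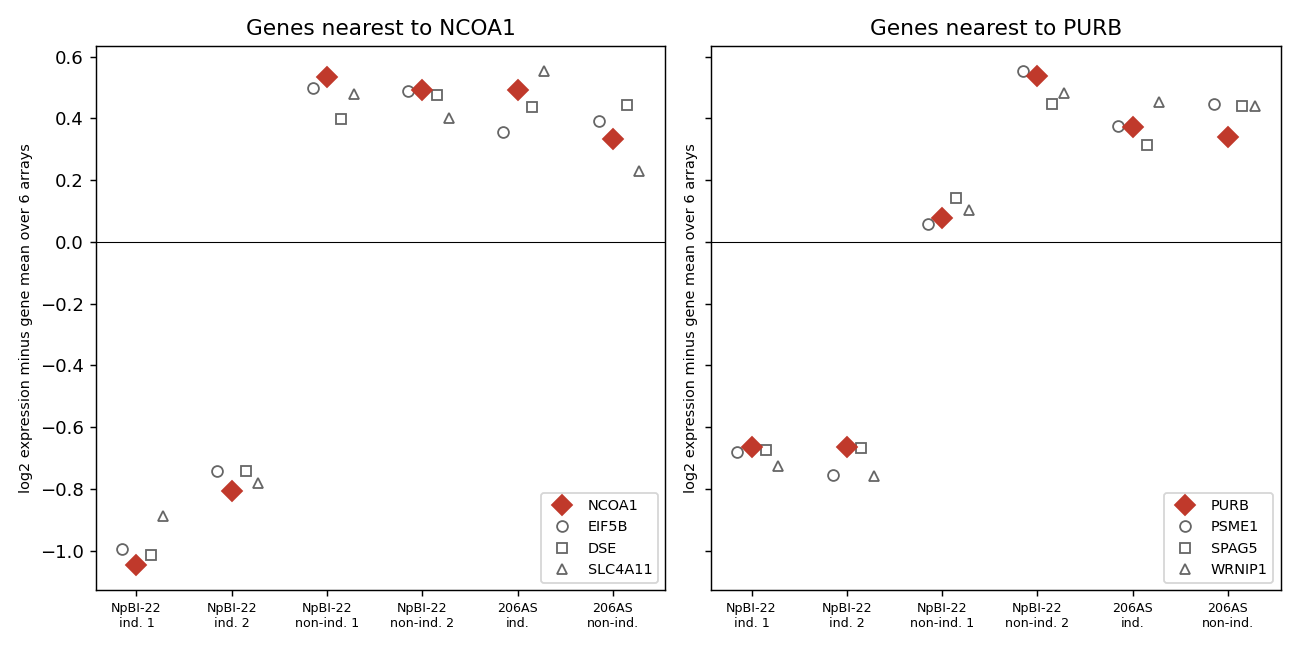
Log2 expression minus each gene's mean over the 6 arrays (vertical axis) for NCOA1 and PURB (diamonds) and the 3 genes nearest to each (open symbols), by array (horizontal axis). Both induced NpBI-22 arrays lie below the gene mean in all 8 genes shown, and all other arrays above it. The nearest genes were chosen for likeness on these same arrays.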

How the data were processed

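Per the submitters' processing notes, the authors made the deposited log2 expression values with RMA in Partek. RMA corrects background, gives every array the same distribution of probe values and then combines probes into transcripts. It hides shifts common to all transcripts. The medians of the deposited values ran from 5.66 to 5.75 over the 6 arrays. Versions and genome build: not given in the sources used here. Groups came from the sample titles. Rows were named by the platform annotation: 19460 rows had 1 symbol, 1754 several and 12083 none. Models with 1 mean per group over all 6 arrays (2 residual and 3.62 prior degrees of freedom), and 1 of induced NpBI-22 against the other 4 arrays, were fitted with limma 3.58.1 in R 4.3.3 to all 33297 rows, two-sided, with Benjamini-Hochberg adjustment at 0.05, and tested on simulated data. Intervals are 95% intervals of the moderated fit. The genes and lists were chosen with earlier results of these data known. From each list up to 4 genes that passed were named, otherwise the 2 with the largest difference, and NCOA2, NCOA3 and PURA were added as paralogs after their values were seen. For the 2 genes with the smallest p, the 3 nearest profiles were named. Gene positions were not used here.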

Additional observations from a re-analysis of the deposited data

Results flagged for a closer look

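MAX stood out on 1 array: among the 4 arrays other than induced NpBI-22, non-induced NpBI-22 replicate 1 lay apart from the rest, its gap to the nearest value being 0.946 of the whole range (6.17 against 6.74 to 6.77). All 8 measured genes were checked in this way, and chance passes the critical value used in about 1 of 20 such groups.

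In NCOA1 and PURB, whose NpBI-22 groups did not overlap, the 2 lines differed in opposite directions. The signs also differed in MAX, TET2 and ESR1, whose NpBI-22 groups overlapped. For NCOA1 the NpBI-22 difference was -1.44 and the NpBI-206AS difference, from 1 array each, 0.16, and the difference between these responses, -1.60, did not pass (limma adjusted p = 0.28). For PURB the values were -0.97 and, from 1 array each, only 0.034, with a difference of -1.005 (limma adjusted p = 0.50).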

How the results depend on the processing

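For induced against non-induced NpBI-22 cells, 1200 rows and 1 of the 8 genes passed. Without the dimmest 50% of rows 2611 of 16649 rows passed, and with the replicate block 2955. Both settings, quantile normalization again and cyclic loess called 2 of the 8. With 1 NpBI-22 array left out, 0 rows and 0 of the 8 passed in limma (unadjusted p was under 0.05 in 3526 to 8113), and the median over the genes ran from -0.30 to -0.14. The labels only number the replicates, and the replicate differences of the 2 groups correlated at r = 0.20 over rows, so the block is no more than an alternative. Against the other 4 arrays, leaving out 1 array (the NpBI-206AS arrays were added after seeing the data) gave 897 to 7463 rows, 1 to 3 of the 8 genes and medians of -0.33 to -0.21. The lowest count came without induced replicate 1 and the highest without non-induced NpBI-22 replicate 1. The median was -0.19 after quantile normalization again and -0.18 with centred arrays.

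Against induced NpBI-206AS, 130 rows passed, 747 without the dimmest rows and 849 with the replicate block, each with 1 of the 8 genes (NCOA1), 75 with rows averaged per gene, and 0 with any NpBI-22 array left out (2511 to 6377 at an unadjusted p under 0.05). The median difference between the responses was -0.15, or -0.054 with centred arrays.

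NCOA1 and PURB kept a negative difference in all 4 comparisons under every alternative run. Sign changes were all in values that did not pass. Leaving out 1 array moved TET2 between -0.49 and 0.088, SP1 between -0.21 and 0.066 and MAX between -0.39 and 0.21 in the first comparison, and SP1 between -0.042 and 0.082 and TET2 between -0.31 and 0.13 in the second. In the third TET2 ran from -0.33 to 0.11, and in the difference between responses SP1 ran from -0.11 to 0.17, SIRT1 from -0.26 to 0.011, HDAC4 from -0.36 to 0.0034 and MAX from -0.41 to 0.20. After quantile normalization again and cyclic loess SP1 was at -0.010 and -0.013 in the second comparison and at -0.059 and -0.055 in the difference between responses. With rows averaged, ESR1 was at -0.035 against induced NpBI-206AS. The cause was not tested for any of these. The dim-row setting left no ESR1 row.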
